A study of Rattus norvegicus with 12 samples.

Results

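Immediate early genes are switched on within minutes of a stimulus, without new protein synthesis, and their transcripts decay fast. This report describes the 10 genes Fos, Fosb, Junb, Jund, Egr1, Egr2, Arc, Nr4a1, Ier2 and Dusp1 in dorsal root ganglia of the rat, taken as every gene probe whose accession matched a listed symbol. Probes were found for 9 of the 10 genes, 1 probe each, among 15154 genes that the probes name. No accession on the array matched Fosb, which was not analysed here.

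Total RNA came from L6 dorsal root ganglia, which hold the cell bodies of sensory neurons and the glia around them, of male rats of the inbred strain Fischer 344, and each sample was read on a single-colour Agilent array. The 3 groups had 4 arrays each. Young rats eating ad libitum at an age of 6 months form young_AL, and rats aged 25 to 28 months on the same feeding form old_AL. Rats of that older age whose food was given on only 3 days in each week, from 6 weeks of age onward and to a restriction of 40%, form old_CR. The study asked about inflammatory and oxidative changes with age and whether restriction prevents them. The labels do not give the hour of collection, the time since the last meal or the time from death to freezing, and the part of each in the values below was not tested.

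In neurons the transcription of these genes follows depolarisation, calcium entry and growth factor receptors, through the MAP kinases, the serum response factor and CREB. Fos, Fosb, Junb and Jund encode subunits of the AP-1 transcription factor, and Jund is known for a steadier expression than the others. Egr1, Egr2 and Nr4a1 encode DNA-binding factors, and Egr2 is also the factor that maintains myelination in Schwann cells. Arc encodes a synaptic protein, Ier2 a nuclear protein of early response, and Dusp1 a phosphatase that switches MAP kinases off. In the dorsal horn of the rat, Fos protein has long served as a marker of neurons activated by noxious input.

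Promoter windows from RefSeq, on the build GRCr8, run from 250 bases before to 50 bases after each gene's start. The table lists Fosb, Junb, Jund, Egr1, Egr2, Nr4a1, Ier2 and Dusp1, and not Fos or Arc. Of these, 4 are shown to set genes with a high correlation with Fos between rats (Ier2, which passed the test, and Nr4a1, which did not) beside genes with a low one (Jund and Egr2). Egr1 and Junb, which also passed and had higher correlations with Fos (r = 0.91 and 0.90), are not printed. Their windows hold 2 CArG boxes and 0, so the windows shown do not stand for all genes high with Fos. Capitals mark TGACG on either strand, the core of the CREB site, and the CArG box, which binds the serum response factor. The windows lie at chr19:40399123-40399422 on the plus strand for Ier2, chr7:134259888-134260187 on the plus strand for Nr4a1, chr16:18769722-18770021 on the minus strand for Jund and chr20:21054392-21054691 on the minus strand for Egr2.
Ier2: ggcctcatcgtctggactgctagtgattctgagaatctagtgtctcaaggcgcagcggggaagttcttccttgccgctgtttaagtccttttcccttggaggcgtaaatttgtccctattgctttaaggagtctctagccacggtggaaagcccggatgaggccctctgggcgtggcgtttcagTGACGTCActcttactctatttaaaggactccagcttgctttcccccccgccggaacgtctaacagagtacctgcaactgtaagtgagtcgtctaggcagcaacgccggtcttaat
Nr4a1: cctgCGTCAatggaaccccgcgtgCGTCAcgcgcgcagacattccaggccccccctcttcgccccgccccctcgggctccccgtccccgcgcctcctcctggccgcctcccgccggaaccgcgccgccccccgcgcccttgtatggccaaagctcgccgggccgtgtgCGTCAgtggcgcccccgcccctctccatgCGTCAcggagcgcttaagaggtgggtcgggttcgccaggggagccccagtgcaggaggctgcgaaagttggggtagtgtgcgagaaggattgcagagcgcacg
Jund: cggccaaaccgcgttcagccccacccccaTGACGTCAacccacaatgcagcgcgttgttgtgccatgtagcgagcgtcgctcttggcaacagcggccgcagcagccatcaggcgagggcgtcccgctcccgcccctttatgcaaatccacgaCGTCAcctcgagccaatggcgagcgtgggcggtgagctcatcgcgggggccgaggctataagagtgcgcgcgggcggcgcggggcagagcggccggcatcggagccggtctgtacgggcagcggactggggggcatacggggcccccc
Egr2: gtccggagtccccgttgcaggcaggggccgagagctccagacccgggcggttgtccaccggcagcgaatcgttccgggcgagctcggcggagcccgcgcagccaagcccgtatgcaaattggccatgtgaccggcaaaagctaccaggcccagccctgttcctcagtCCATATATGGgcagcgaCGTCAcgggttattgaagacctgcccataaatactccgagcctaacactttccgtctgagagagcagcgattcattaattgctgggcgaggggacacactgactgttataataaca

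TGACG stood in 7 of the 8 listed windows, all but that of Fosb, against 21.2% of all 33469 windows of the same length. The full palindrome TGACGTCA, which holds TGACG on both strands, stood in the windows of Jund, Ier2 and Dusp1, against 1.83% of all windows. A CArG box stood in the windows of Egr1 (2 boxes) and Egr2 (1 box), against 1.64%. TGANTCA, the AP-1 site, stood in 0 of the 8, against 7.33%. Both strands were searched. Jund and Ier2 both hold the palindrome, centred 217.5 bases before the start in Jund and 62.5 bases before it in Ier2, and a match is a description of the sequence alone.

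Old_AL 1 was unlike every other array, with a 75th percentile of 7662 where the remaining arrays had 2634 to 3110. The share of spots well above background was 71.6% there and 78.8% to 84.1% elsewhere. Results are given on the 11 other arrays, with n = 3 for old_AL and n = 4 for young_AL and old_CR, and then on all 12. Young and old arrays lie on different slides, and slide cannot be told apart from age. On the slide of the old rats each diet has its own row, so diet and row cannot be told apart. Of 17 sensory neuron markers 15 were measured, and on the 11 arrays their summed relative signal ranged from 671 to 709 in young_AL, 669 to 705 in old_AL and 637 to 676 in old_CR, in units of the array's 75th percentile. Of the 15, 3 fell with age, 1 rose in old_CR against old_AL and 2 fell in old_CR against young_AL, where 3.24%, 1.06% and 2.41% of all genes passed in either direction, and their part in the results below was not tested. All 9 probes of the immediate early genes were well above background on all 12 arrays and none was saturated. In whole ganglia, fewer cells of a type and less RNA per cell cannot be told apart.

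Signals below are relative signals, the processed intensity in percent of the 75th percentile of its array, and levels are not compared between genes. Differences are between group means in log2 units, each with its standard error (SE) from the limma fit and with p-values adjusted by Benjamini-Hochberg over 20849 genes.

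Fos, the AP-1 subunit most used as an activity marker, had relative signals of 55.8%, 9.18%, 17.9% and 14.2% in young_AL 1 to 4. It had 7.81%, 22.8% and 11.3% in old_AL 2 to 4 and 9.92%, 7.01%, 7.71% and 9.64% in old_CR 1 to 4. Young_AL 1 stood far above every other array and old_AL 3 was the next highest, while the old_CR arrays lay close together at the low end, and all 3 groups overlapped. The difference of old_CR from young_AL was -1.17 ± 0.52 (SE), with an adjusted p of 0.276 in limma, and without young_AL 1 it was -0.65 with an adjusted p of 0.443. Old_AL differed from young_AL by -0.59 ± 0.56 (adjusted p = 0.544 in limma) and old_CR from old_AL by -0.58 ± 0.56 (adjusted p = 0.524 in limma). On old_AL 1, the array that stood apart, Fos was at 4.08%.

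Junb, the AP-1 subunit that often opposes Jun, had relative signals of 333%, 159%, 254% and 198% in young_AL 1 to 4. It had 191%, 252% and 179% in old_AL 2 to 4 and 168%, 172%, 144% and 167% in old_CR 1 to 4. Every old_CR array was below every old_AL array, and old_CR overlapped young_AL through young_AL 2. The difference of old_CR from old_AL was -0.34 ± 0.23 (adjusted p = 0.352 in limma), and that of old_CR from young_AL was -0.49 ± 0.21 (adjusted p = 0.258 in limma). Junb was at 548% on old_AL 1, which turned its difference of old_AL from young_AL from -0.15 on 11 arrays to 0.21 on 12.

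Jund, the AP-1 subunit with the steadier expression, lay between 659% and 702% in young_AL, 631% and 745% in old_AL 2 to 4, and 640% and 718% in old_CR. The groups overlapped throughout. Its differences were 0.00 ± 0.06 for old_AL against young_AL, -0.02 ± 0.06 for old_CR against old_AL and -0.01 ± 0.06 for old_CR against young_AL. Their 95% intervals were -0.14 to 0.15, -0.16 to 0.12 and -0.15 to 0.12. These values leave out old_AL 1, where Jund was at 1400%. On 12 arrays old_AL differed from young_AL by 0.26, with a 95% interval of -0.21 to 0.74. Old_CR then differed from old_AL by -0.28, with an interval of -0.75 to 0.19. The difference of old_CR from young_AL stayed at -0.01, with a wider interval of -0.49 to 0.46.

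Egr1, a zinc finger factor that serves like Fos as a marker of recent activity, had relative signals of 28.9%, 11.1%, 19.6% and 13.6% in young_AL 1 to 4. It had 7.71%, 23.1% and 14.6% in old_AL 2 to 4 and 10.7%, 9.47%, 7.69% and 11.4% in old_CR 1 to 4. The same arrays were high as for Fos, young_AL 1, old_AL 3 and young_AL 3, and the groups overlapped. The difference of old_CR from young_AL was -0.82 ± 0.37 (adjusted p = 0.280 in limma). Old_AL differed from young_AL by -0.31 ± 0.40 and old_CR from old_AL by -0.50 ± 0.40, with adjusted p-values of 0.655 and 0.429 in limma.

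Egr2 ranged from 64.4% to 94.9% in young_AL, from 65.4% to 83.4% in old_AL 2 to 4 and from 62.9% to 117% in old_CR. It was the one gene of the 9 with a higher mean in old_CR than in young_AL, by 0.18 ± 0.19 (adjusted p = 0.659 in limma), and the groups overlapped. The 8 measured of 9 listed markers of myelinating Schwann cells, which count Egr2 among them, ranged in summed relative signal from 152 to 171 in young_AL, 128 to 155 in old_AL 2 to 4 and 128 to 147 in old_CR, in units of the array's 75th percentile. Their part in the Egr2 values was not tested.

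Nr4a1, an orphan nuclear receptor, ranged from 269% to 390% in young_AL, 218% to 299% in old_AL 2 to 4 and 212% to 276% in old_CR. Young_AL 1 was the highest array and the groups overlapped. It differed by -0.30 ± 0.15 between old_AL and young_AL and by -0.28 ± 0.14 between old_CR and young_AL, with adjusted p-values of 0.274 and 0.337 in limma. Between old_CR and old_AL it differed by 0.02 ± 0.15, and this sign turned under several settings.

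Arc, whose protein acts in the trafficking of synaptic receptors, had relative signals of 8.23%, 7.58%, 7.03% and 8.03% in young_AL 1 to 4. It had 4.37%, 6.04% and 6.46% in old_AL 2 to 4 and 6.00%, 5.95%, 5.73% and 6.96% in old_CR 1 to 4. Every array of old rats was below every array of young rats, by a narrow margin between old_CR 4 and young_AL 3, and the old groups overlapped. The difference of old_AL from young_AL was -0.47 ± 0.13, with an unadjusted p of 0.00474 and an adjusted p of 0.0762 in limma. It was -0.72 with an adjusted p of 0.0148 after quantile normalization and -0.58 with an adjusted p of 0.0202 after median centring, but -0.24 with an adjusted p of 0.0865 after normexp. It was -0.73 with an adjusted p of 0.566 in limma on 12 arrays, where old_AL 1 read 2.70%. Quantile normalization and median centring called 1283 and 2968 of all 20849 genes for old_AL against young_AL, where the main fit called 676. Old_CR differed from young_AL by -0.33 ± 0.12 (adjusted p = 0.186 in limma) and from old_AL by 0.15 ± 0.13 (adjusted p = 0.475 in limma).

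Ier2 ranged from 82.0% to 137% in young_AL, 76.1% to 127% in old_AL 2 to 4 and 73.2% to 89.8% in old_CR. Dusp1 ranged from 7.44% to 10.7% in young_AL, 7.17% to 11.4% in old_AL 2 to 4 and 6.50% to 8.72% in old_CR. For both genes the groups overlapped, and the highest array of old_CR lay below the highest array of each other group. The difference of old_CR from young_AL was -0.36 ± 0.19 for Ier2 and -0.21 ± 0.16 for Dusp1, with adjusted p-values of 0.351 and 0.554 in limma.

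**Figure D1:**
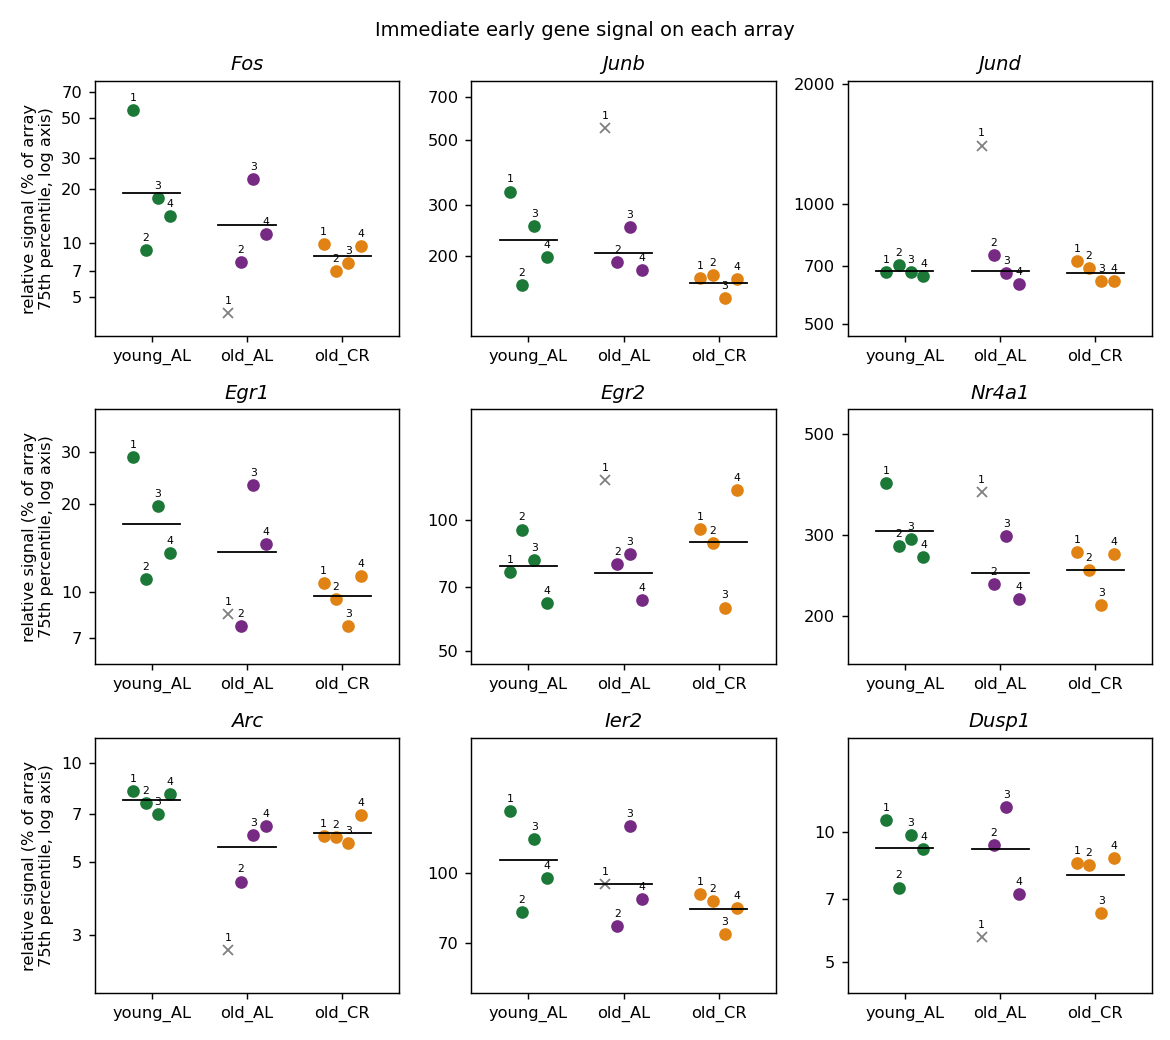
Relative signal of the 9 genes on each array, in percent of the array's 75th percentile on a log axis, by group. Each point is an array with its number, the grey cross is old_AL 1, and the line is the geometric mean without it; Fos reached 55.8% on young_AL 1 and lay between 7.01% and 9.92% in old_CR.

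None of the 9 genes passed the test in any of the 3 comparisons, on 11 arrays or on 12. Of all genes tested on 11 arrays, 3.24% passed for old_AL against young_AL, 1.06% for old_CR against old_AL and 2.41% for old_CR against young_AL, and on 12 arrays 0.0191%, 0.00478% and 0.0191%. At an unadjusted p under 0.05, 1 of the 9 (Arc) was reached with age, 0 with restriction and 2 (Arc and Junb) in old_CR against young_AL, where 23.1%, 26.4% and 18.3% of all genes were. On 12 arrays these counts were 1, 0 and 0, where 6.71%, 5.96% and 2.72% of all genes were. The smallest adjusted p among the 9 was 0.0762 with age, 0.352 for old_CR against old_AL and 0.186 for old_CR against young_AL.

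The mean was lower in 8 of 9 genes for old_AL against young_AL, in 6 of 9 for old_CR against old_AL and in 8 of 9 for old_CR against young_AL. Over all genes 40.8%, 62.9% and 55.7% were lower. On 12 arrays it was lower in 6, 7 and 8 of 9 genes, beside 56%, 45.3% and 55.7% of all genes. The median difference of the 9 was -0.17, -0.19 and -0.33, beside 0.03, -0.05 and -0.02 over all genes. The comparisons share arrays, and the 9 genes share rats, so these counts are not independent of each other. Groups did not overlap for Arc (old_AL and old_CR below young_AL) and Junb (old_CR below old_AL), that is 1 of 9 in each comparison, where 19.6%, 23.5% and 15.8% of all genes did not overlap and 7.67%, 15.3% and 10.2% did so with the first-named group lower.

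**Figure D2:**
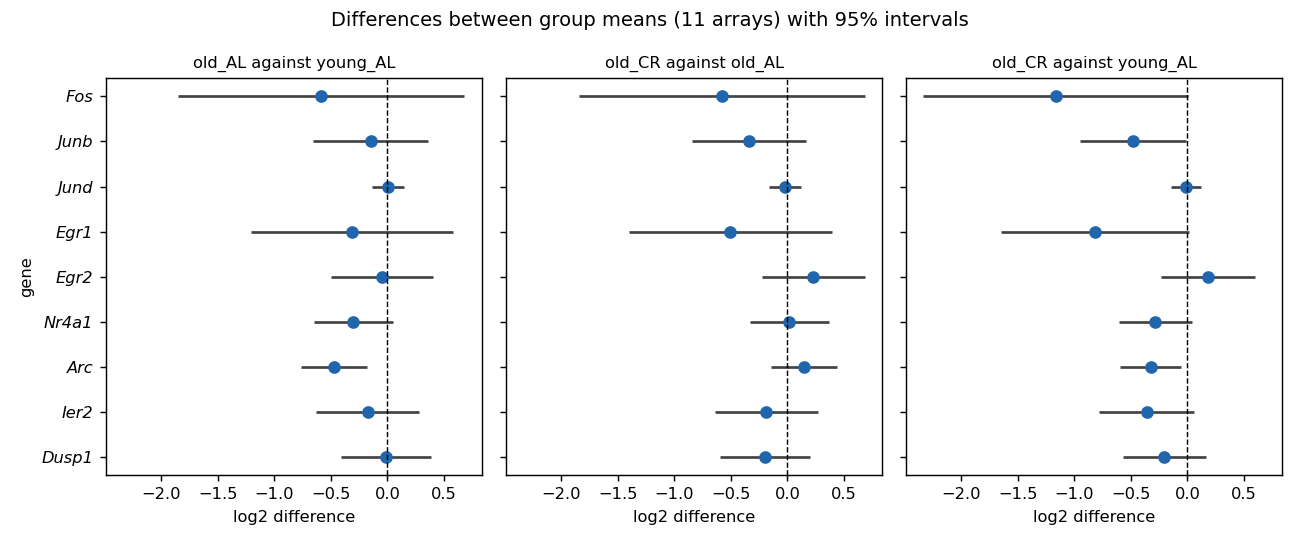
Difference between group means (log2, first group minus second) of the 9 genes in each comparison on 11 arrays, with 95% intervals of the limma fit as lines. The interval of Fos for old_CR against young_AL runs from -2.34 to 0.01, while those of Jund lie between -0.16 and 0.15.

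The spread between rats of a group differed among the genes. The within-group standard deviation on 11 arrays was 0.80 for Fos, 0.57 for Egr1 and 0.32 for Junb on the log2 scale. It was 0.29 for Ier2, 0.28 for Egr2, 0.25 for Dusp1, 0.22 for Nr4a1, 0.18 for Arc and 0.08 for Jund, beside a median of 0.10 over all genes. Fos stood at the 97.0th percentile of all genes tested, Egr1 at the 93.5th, Junb at the 83.9th and Jund at the 39.9th. Among genes of a like signal level, Fos stood at the 97.8th percentile, Junb at the 97.4th, Egr1 at the 96.3rd and Jund at the 81.6th, so Jund was not among the steadier genes of its level. The ratio of this spread to the standard deviation between replicate spots on an array was 10.4 for Fos and 8.91 for Egr1, with 2 spots each. It was as low as 1.98 for Jund, with 2 spots, and 1.86 for Arc, with 10 spots. The spread is that of array values averaged over their spots, while the divisor is that of single spots. This ratio therefore does not compare genes with unlike numbers of spots. For Junb, which has 1 spot, no such ratio can be had.

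Within young_AL the standard deviation of Fos was 1.11, and within old_CR it was 0.25. The same pair of values was 0.46 and 0.12 for Junb, 0.61 and 0.25 for Egr1, and 0.32 and 0.13 for Ier2. The order was the opposite for Egr2 (0.23 and 0.37), Jund (0.038 and 0.082) and Arc (0.10 and 0.12). The ratio of the young_AL to the old_CR value was 1.34 for Nr4a1 and 1.14 for Dusp1, beside a median of 1.13 over all genes. Of all genes 57.0% had a ratio above 1. The spread of Fos within young_AL includes young_AL 1, and the difference in spread between groups was not tested.

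**Figure D3:**
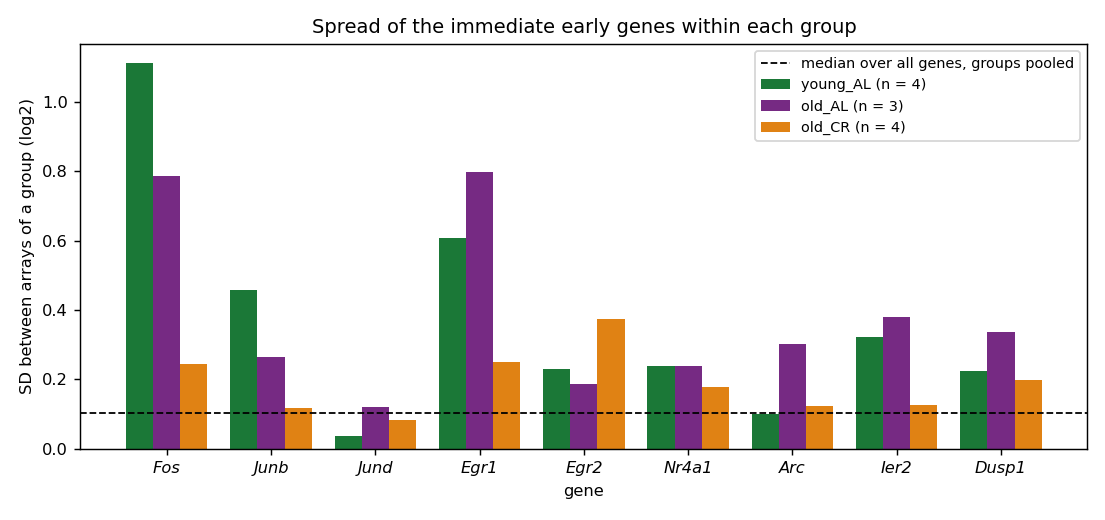
Standard deviation (log2) of each gene between the arrays of a group, with n = 4 for young_AL and old_CR and n = 3 for old_AL, and the all-gene median of 0.10 as a dashed line. Fos, Junb, Egr1, Ier2, Nr4a1 and Dusp1 have shorter bars in old_CR than in the other groups, and Egr2 has a longer one.

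Rats that were high for Fos were high for Egr1, Ier2 and Junb. With each group's mean subtracted, Fos and Egr1 correlated at r = 0.91 (Spearman's rho 0.91) over 11 arrays, with an adjusted p of 0.025 for r and 0.0451 for rho by exact permutation of arrays within groups, adjusted over 36 pairs. Without the pair of arrays farthest from the median of Fos, young_AL 1 and old_AL 3, r was 0.86. Within the slide that holds the 7 old rats it was 0.93, with an exact permutation adjusted p of 0.225, and on 12 arrays it was 0.91.

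Fos and Ier2 correlated at r = 0.89 (rho 0.86), with exact permutation adjusted p-values of 0.025 and 0.0595, at 0.83 without those arrays, 0.91 within the 7 old rats and 0.76 on 12 arrays. Fos and Junb correlated at r = 0.90 (rho 0.79), with exact permutation adjusted p-values of 0.0428 and 0.106, at 0.75 without those arrays and 0.74 within the 7 old rats. On 12 arrays that last r was 0.03, with old_AL 1 the lowest array for Fos and the highest for Junb. Leaving out single arrays gave r from 0.88 to 0.94 for Egr1, 0.85 to 0.93 for Ier2 and 0.79 to 0.93 for Junb, with exact permutation adjusted p-values up to 0.0972, 0.121 and 0.170, and fewer arrays leave fewer orders. The call was lost in 6 of 11 leave-outs for Egr1, in 8 for Junb and in 8 for Ier2, with 1 more for Ier2 at 0.05. Of 5 other settings (12 arrays, the old rats alone and 3 ways of processing), Junb also lost it in 4, Ier2 in 2 and Egr1 in 1.

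Fos and Nr4a1 correlated at r = 0.82 (rho 0.72, exact permutation adjusted p-values of 0.0599 and 0.0809), at 0.46 without those arrays, 0.74 within the 7 old rats and 0.20 on 12 arrays, and Fos and Dusp1 at 0.65 (rho 0.78, exact permutation adjusted p-values of 0.189 and 0.0809). Neither pair passed, nor did Fos with Arc (r = 0.45), Egr2 (r = 0.01) or Jund (r = -0.24). Among Fos, Egr1, Junb, Ier2, Nr4a1 and Dusp1, a grouping made after the values were seen, 9 of 15 pairs passed by r. By rho, 5 had an exact permutation adjusted p of 0.05 or less. Of these, Egr1 with Ier2 and Junb with Dusp1 stood at 0.05 itself. Of the 18 pairs that join these 6 genes to Arc, Egr2 or Jund, 0 passed, with r from -0.36 to 0.63. Because the grouping came from the same values, setting these counts side by side is no test of it. On 12 arrays r ran from -0.14 to 0.91 among the 6 genes and from -0.65 to 0.78 in the 18 pairs. Fos correlated at r = -0.53 with the log2 of the array's 75th percentile, -0.48 with the skeletal muscle markers, 0.45 with the T cell markers and 0.43 with the macrophage markers, and between -0.20 and 0.38 with the other 11 of 15 array measures and marker lists. The exact permutation adjusted p was at least 0.991 for each, which at 11 arrays does not show that they were unrelated. The 75th percentile is itself subtracted from the log2 Fos signal of its array, so the r of -0.53 is not between independent measures.

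**Figure D4:**
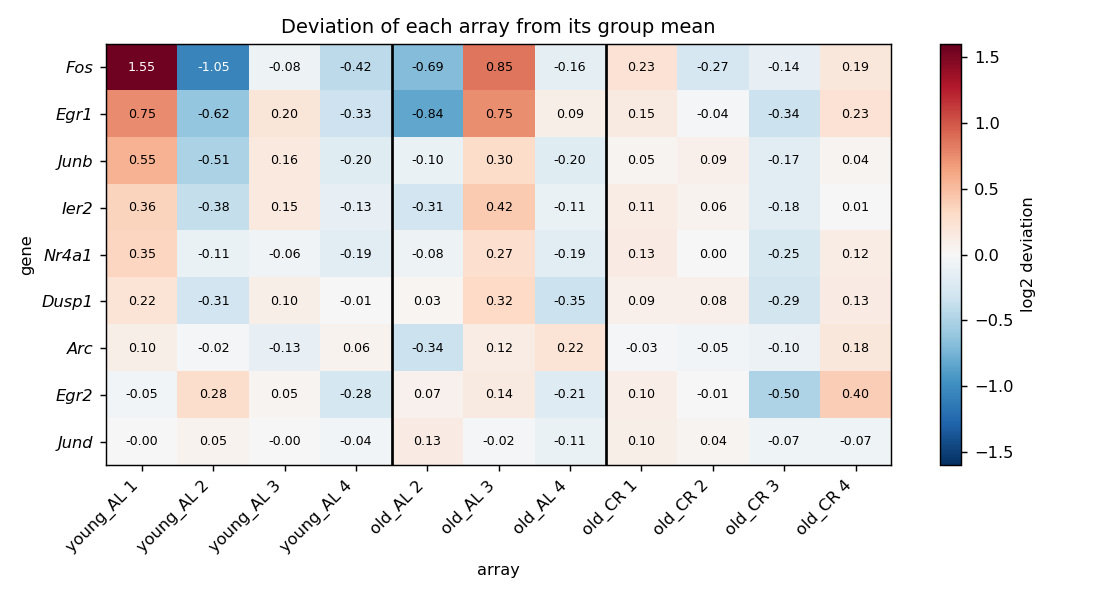
Deviation of each of 11 arrays from its group mean (log2) for the 9 genes, with vertical lines between groups. Young_AL 1 and old_AL 3 are above their group means for Fos, Egr1, Junb, Ier2, Nr4a1 and Dusp1 (0.22 to 1.55 log2), while Jund stays within 0.13 on every array.

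**Figure D5:**
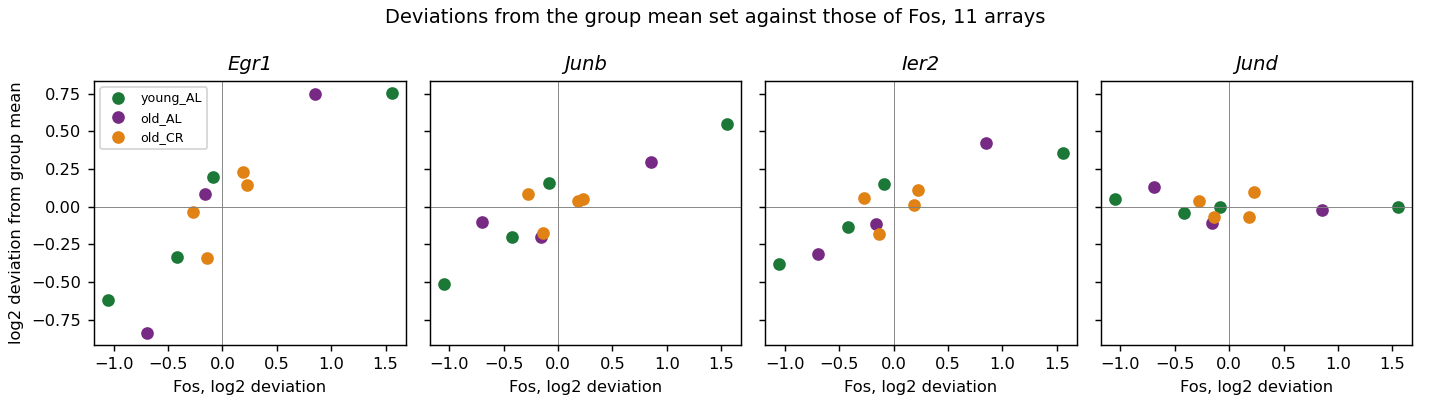
Deviation from the group mean of Egr1, Junb, Ier2 and Jund (log2, y axes) against that of Fos (log2, x axes) on 11 arrays, coloured by group. Egr1, Junb and Ier2 rise with Fos (r = 0.91, 0.90 and 0.89), and Jund does not (r = -0.24).

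The genes most like Fos over the 11 arrays, among 11561 genes with a symbol and after subtracting group means, were Egr1, Lbh, Junb, Numb and Ier2, with r from 0.91 to 0.89. Those most like Egr1 were Ier2, Hs3st1, Dusp18, Fos and Ccnd1, and those most like Jund included Ptpn1, Mxd1, Rras2 and Eid1. Among all 19134 genes with or without a symbol, Egr1 took place 4 for Fos, Junb place 6, Ier2 place 8, Nr4a1 place 35 and Dusp1 place 317. With 11 arrays and this many genes, unrelated genes also reach high correlations, so these names are a description of these arrays and carry no p.

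Beyond the 9 genes, 50 other immediate early and early response genes were listed and 48 were measured. With age on 11 arrays, 2 rose and 1 fell, where 3.24% of all genes passed. Egr4, a relative of Egr1, fell by 0.64 ± 0.11 (adjusted p = 0.0269 in limma), from 5.04% to 6.19% in young_AL to 2.92% to 3.85% in old_AL 2 to 4. Bhlhe40, a repressor that also acts in the circadian clock, rose by 0.42 ± 0.06 (adjusted p = 0.017 in limma), and Mcl1, a survival factor, by 0.20 ± 0.05 (adjusted p = 0.0494 in limma). The median difference of the 48 was 0.08, beside 0.03 over all genes.

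In old_CR against old_AL, 0 of the 48 rose and 2 fell, where 1.06% of all genes passed. Bdnf, a neurotrophin made by sensory neurons, read 9.19%, 8.91% and 8.95% in old_AL 2 to 4 and 5.77%, 6.10%, 5.79% and 5.37% in old_CR 1 to 4. Every old_CR array was lower, and the difference was -0.65 ± 0.09 (adjusted p = 0.0289 in limma). Btg1, an antiproliferative factor, fell by 0.22 ± 0.04 (adjusted p = 0.0447 in limma). In old_CR against young_AL, where 2.41% of all genes passed, 1 rose and 1 fell, Bhlhe40 by 0.28 ± 0.06 (adjusted p = 0.0363 in limma) and Bdnf with a difference of -0.60 ± 0.09 (adjusted p = 0.0158 in limma).

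Of 47 upstream kinases and factors 38 were measured, and 1 passed over the 3 comparisons. Beside this list and the next ones, 3.24% of all genes passed with age, 1.06% in old_CR against old_AL and 2.41% in old_CR against young_AL. Elk3, a ternary complex partner of the serum response factor, fell by 0.60 ± 0.10 in old_CR against old_AL (adjusted p = 0.0445 in limma). Of 17 feedback inhibitors 15 were measured, and Dusp8, a phosphatase of stress kinases, fell with age by 0.15 ± 0.03 (adjusted p = 0.0321 in limma). Of 11 further bZIP partners 10 were measured. Atf4, a stress response factor, fell by 0.22 ± 0.05 in old_CR against young_AL (adjusted p = 0.0485 in limma).

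All 14 listed glucocorticoid-induced genes were measured. With age 0 passed, where 3.24% of all genes did. Per1, a clock gene that also responds early, had a difference of -0.67 ± 0.21 with age (adjusted p = 0.114 in limma). In old_CR against old_AL 0 of the 14 rose and 2 fell, where 1.06% of all genes passed. Angptl4, an inhibitor of lipoprotein lipase, fell by 0.49 ± 0.08 (adjusted p = 0.0408 in limma). Cdkn1a, an inhibitor of cell division, fell by 0.35 ± 0.07 (adjusted p = 0.0459 in limma), while a dimmer Cdkn1a probe had a difference of -0.38 (adjusted p = 0.357 in limma). Angptl4 also fell in old_CR against young_AL, where 2.41% of all genes passed, by 0.45 ± 0.08 (adjusted p = 0.0237 in limma). On 12 arrays 0 genes of the 5 lists passed in any comparison, with 3, 2 and 3 of the 48 early response genes at an unadjusted p under 0.05, where 6.71%, 5.96% and 2.72% of all genes were. On 11 arrays these unadjusted counts were 12, 18 and 13 of the 48, where 23.1%, 26.4% and 18.3% of all genes were.

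The median differences of these lists with age were 0.04 for the upstream list, -0.01 for the feedback list, 0.15 for the bZIP list and 0.04 for the glucocorticoid list, beside 0.03. In old_CR against old_AL they were -0.04, -0.16, -0.14 and 0.05, with -0.17 for the other early response genes, beside -0.05. The glucocorticoid list thus had a median above 0 there while both genes that passed fell. For old_CR against young_AL the list medians, in the same order, were 0.00, -0.16, -0.03 and 0.14. The other early response genes had -0.13 in that comparison, beside -0.02 over all genes. Angptl4, the 1 glucocorticoid gene that passed in it, fell. With quantile normalization Elk3 in old_CR against old_AL came to -0.28 (adjusted p = 0.219 in limma), Bhlhe40 to 0.23 with age and 0.27 in old_CR against young_AL (adjusted p = 0.0816 and 0.072 in limma), and Mcl1 with age to 0.13 (adjusted p = 0.146 in limma). With median centring Mcl1 with age came to 0.10 and Btg1 in old_CR against old_AL to -0.12 (adjusted p = 0.224 and 0.125 in limma). With each array left out in turn, the call held in 9 of 11 cases for Egr4 and for Bhlhe40 with age, in 3 for Bhlhe40 in old_CR against young_AL, and in 5 for Bdnf in old_CR against old_AL and 8 in old_CR against young_AL. For Angptl4 it held in 2 and 7 of 11 in those comparisons, for Elk3 in 3, for Dusp8 and Atf4 in 2, for Btg1 and Cdkn1a in 1 and for Mcl1 in 0.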

How the data were processed

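Agilent Feature Extraction 10.7 produced the deposited spot intensities, as the submitters' processing notes state. Per the file headers, the intensity used is linear and has its background removed within an array, with no scaling between arrays.

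Log2 of that intensity minus the array's 75th percentile was analysed. Control spots were left out, outlier spots set to missing and replicate spots averaged. Probes well above background (at least a share of 0.5 of their spots) on fewer than 4 arrays were dropped, and the brightest probe stood for a gene. Symbols came from a RefSeq table of GRCr8. Groups were compared with limma 3.58.1 in R 4.3.3 (data.table, version 1.17.8), with Benjamini-Hochberg adjustment and a threshold of 0.05. Scripts were tested on simulated data. The p-values measure only the spread between these arrays.

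The members and lists were chosen with earlier results of these data known. All members were named. In each of 5 lists and each comparison the rule took those that passed (up to 6) or else the 2 with the smallest p, of which the text prints some, and then the 5 genes most like Fos, Egr1 and Jund. Alternatives covered the arrays used (all 12, or each left out), the scaling (quantile, median), normexp with an offset of 50 on the median spot signal, the filter, the choice of probe, the series table, the samples in the fit, a trend, weights, and a block for the replicate number. Those for correlations were chosen after seeing the data. Some results that the rule names are not reported here.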

Additional observations from a re-analysis of the deposited data

Results flagged for a closer look

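Dusp1 in old_CR had a single low array, old_CR 3, at a relative signal of 6.50%, whose gap to the nearest of the other arrays (8.40%) was wide beside the range of its group. It was 1 of 27 groups of 4 arrays examined on the log2 scale for the 9 genes, old_AL 1 included, and chance alone marks about 1 in 20 groups.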

How the results depend on the processing

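Of the 9 genes, none passed under any alternative run except Arc in old_AL against young_AL. In that comparison 1 of the 9 passed with quantile normalization and 1 with median centring, where 1283 and 2968 of all 20849 genes passed. Over all genes, old_AL against young_AL called 676 genes, but 4 on 12 arrays, 1283 with quantile normalization, 2968 with median centring, 3838 with normexp, 25 with the compared groups alone and 1089 with an intensity trend. Old_CR against old_AL called 222, but 1, 638, 2107 and 4732 under those first 4 settings, 128 with no filter, 370 when every array had to be well above background, 865 with a trend and 1209 with array weights. With the compared groups alone it called 0 in limma, with 4684 genes at an unadjusted p under 0.05. Old_CR against young_AL called 503, but 4 on 12 arrays, 226 with no filter, 879 with the compared groups alone and 1775 with array weights. Leaving out single arrays gave 70 to 401, 1 to 919 and 42 to 862 calls, 0 of the 9 genes in each, and median differences of the 9 from -0.39 to -0.061, -0.24 to -0.029 and -0.36 to -0.24. The median with age was -0.39 without old_AL 3 and -0.061 without young_AL 1. The share of higher calls with age was 61.5%, and 27.7%, 13.1% and 86.3% with quantile normalization, median centring and normexp. For old_CR against old_AL it was 25.2%, and 57.4%, 86.7% and 10.7%. The cause was not tested.

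The replicate number as a block left 20, 1 and 17 genes called. Same-numbered arrays correlated from -0.088 to 0.086 in their deviations. They also lay at the same position within their row of a slide, so this block cannot tell number and position apart. The part of position was not tested. The block turned Nr4a1 in old_CR against old_AL to -0.062 and Dusp1 with age to 0.041. On 12 arrays the sign turned with age for Junb (0.21), Egr2 (0.13), Mcl1 (-0.28), Elk3 (-0.041) and Cdkn1a (-0.046), and in old_CR against old_AL for Nr4a1 (-0.13) and Dusp8 (-0.044). In old_CR against old_AL, it turned with quantile normalization for Nr4a1 (-0.012), Dusp1 (0.026) and Dusp10 (0.24), with median centring for Jund (0.083), with normexp for Arc (-0.0047) and with array weights for Nr4a1 (-0.093). With age, it turned with median centring for Jund (-0.097), with normexp for Dusp1 (0.10) and with array weights for Egr2 (0.030) and Dusp1 (0.17). Normexp turned Jund in old_CR against young_AL (0.00033). The correlation of Fos with Egr2 turned on 12 arrays (-0.31) and with median centring (-0.0096).

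Leaving out single arrays spanned 0 with age for Jund (-0.061 to 0.059), Junb (-0.32 to 0.036), Egr2 (-0.14 to 0.056), Egr1 (-0.69 to 0.11) and Dusp1 (-0.17 to 0.17). It did so in old_CR against old_AL for Jund (-0.073 to 0.047), Nr4a1 (-0.076 to 0.15), Ier2 (-0.34 to 0.024) and Arc (-0.025 to 0.26), and in old_CR against young_AL for Jund (-0.047 to 0.0086). The correlation of Fos ranged from -0.36 to 0.030 with Jund and from -0.099 to 0.30 with Egr2. Among the list genes, Mcl1 passed in 0 of 11 leave-outs, Btg1 in 1, Egr4 and Bhlhe40 (with age) in 9, and Bdnf in 5 for old_CR against old_AL and 8 for old_CR against young_AL. Slide as a block was not run, because the slides separate young from old rats. The number of arrays limits the precision of every value.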
